A study of Mus musculus with 24 samples.

Results

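Il2rg, Ptprc, Laptm5, Lcp1 and Coro1a are 5 mouse genes known best from white blood cells, and they are described here in breast cancer cell lines and tumors. They were chosen by name as leukocyte genes with the measured values of the E0771-LG breast cancer cell line in view, against those of its parent line E0771, and with no threshold. All 5 names were found among the 12091 genes measured, each at its own place on 5 different chromosomes. Since the level in E0771-LG against E0771 served to choose them, that difference is given below as values, with no test.

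The study sequenced RNA from 24 samples in 4 experiments, each of 3 control and 3 treated samples, to ask what changes when pleiotrophin (PTN), a secreted growth factor encoded by Ptn, is blocked in tumors or depleted in cancer cells. In 2 experiments tumor-bearing mice were given 3B10, a mouse monoclonal antibody against PTN (15 mg/kg, repeated through each week), or C44, a control mouse IgG. The 4T1 tumors grew from BALB/c mammary carcinoma cells implanted in the mammary fat pad of young adult female BALB/c mice. The MMTV-PyMT tumors arose in FVB/N mice that carry the polyoma middle T antigen behind a viral promoter active in mammary epithelium, and treatment began once tumors had formed. In the other 2 experiments E0771 and E0771-LG cells, both C57BL/6 mammary cancer cells grown in culture, carried either the pLKO control vector with a hairpin against EGFP (E0771shCtrl, E0771-LGshCtrl) or a single hairpin construct against Ptn (E0771shPTN, E0771-LGshPTN). Of the lines, E0771-LG is a subline of E0771 that comes from a metastasis in the lung. Control and hairpin cells were separately selected with puromycin and kept under it, so a difference between them also holds any difference between the selected populations. The study's methods call the 3 samples of a group biological replicates, and whether those of a cell group were also selected apart is not given in the sources used here.

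Levels are given on the log2 scale. In the 18 cell line and MMTV-PyMT samples they are log2 CPM, that is reads scaled by the sample's total on genes with 0.5 read added, and those totals were 15.6 to 21.1 M reads (megareads, median 18.2). On that scale 3 reads, the floor used here, lie between -2.59 and -2.16. The 4T1 values are also log2, but lie on another scale and hold no steps of whole reads, so their depth is unknown and they are set against each other only. A gene was tested in an experiment when its value off the log scale, less the sample's lowest value, reached 1 in at least 3 samples. It is called changed when limma's p, adjusted over every gene tested there, lies under 0.05. A gene below the filter in every sample of a group can be tested only if it is higher in the other group.

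Most white blood cells carry the products of these genes, which serve in receiving signals and in moving. Cytokine receptors and antigen receptors pass signals through kinases, the phosphatase CD45 sets how active the kinases at the antigen receptor are, lysosomal proteins limit how much receptor stays on the surface, and actin-binding proteins shape the cell cortex for migration. In breast tumors, RNA of such genes comes largely from infiltrating immune cells, while the actin bundler L-plastin, the product of Lcp1, is also known from carcinoma cells.

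Ptn itself (ENSMUSG00000029838) was read first in each sample. In E0771shCtrl it stood at 2.90, 2.18 and 2.28 log2 CPM and in E0771shPTN at -0.63, 0.25 and 0.53. In E0771-LGshCtrl it stood at 3.65, 4.51 and 3.74 and in E0771-LGshPTN at 1.42, 0.98 and 1.38. In each line all 3 hairpin samples lay below all 3 control samples, in keeping with the labels: Ptn fell by 2.40 in E0771 (SE 0.37, adjusted p 0.00159, to 18.9% of control) and fell by 2.71 in E0771-LG (SE 0.28, adjusted p 6.3e-05, to 15.3%). The antibody binds the protein, so the tumors offer no such check. Ptn levels there were 2.80, 2.73 and 3.42 log2 CPM with C44 and 3.28, 2.95 and 4.22 with 3B10 in MMTV-PyMT, and -0.19, -0.65 and -0.12 with C44 and -0.76, 0.86 and 0.37 with 3B10 on the 4T1 scale, too low to be tested. The C44 and 3B10 groups overlapped in both tumor models.

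The name under which the 5 genes were brought together, leukocyte genes expressed in E0771-LG cells, was checked against the values, and it held in full for Il2rg, Laptm5 and Lcp1. Ptprc went against it, with 0, 5 and 0 reads in the 3 E0771-LGshCtrl samples, and Coro1a, though detected there, was lower in E0771-LG than in E0771 cells. Below, the name leukocyte genes therefore stands for all 5 and says nothing of their level in E0771-LG. Il2rg, Laptm5 and Lcp1 are named where only they are meant, with Ptprc and Coro1a reported beside them. Between the control cells of the lines, Il2rg, Laptm5 and Lcp1 were higher in E0771-LG without overlap and Coro1a lower, and the same held between the shPTN cells. The share of all genes without such overlap was not counted. By limma, which is another measure, 19.2% of all 10411 genes tested in the control cells were called higher and 35.3% lower in E0771-LG. Nothing is read from that comparison for the chosen genes. The median over all genes in that contrast was -0.15 log2, and 0.00 under median-of-ratios scaling, so differences between the lines are also given relative to the median. The same scaling changed the split of calls from 2004 higher and 3672 lower to 2854 and 2828.

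**Figure D1:**
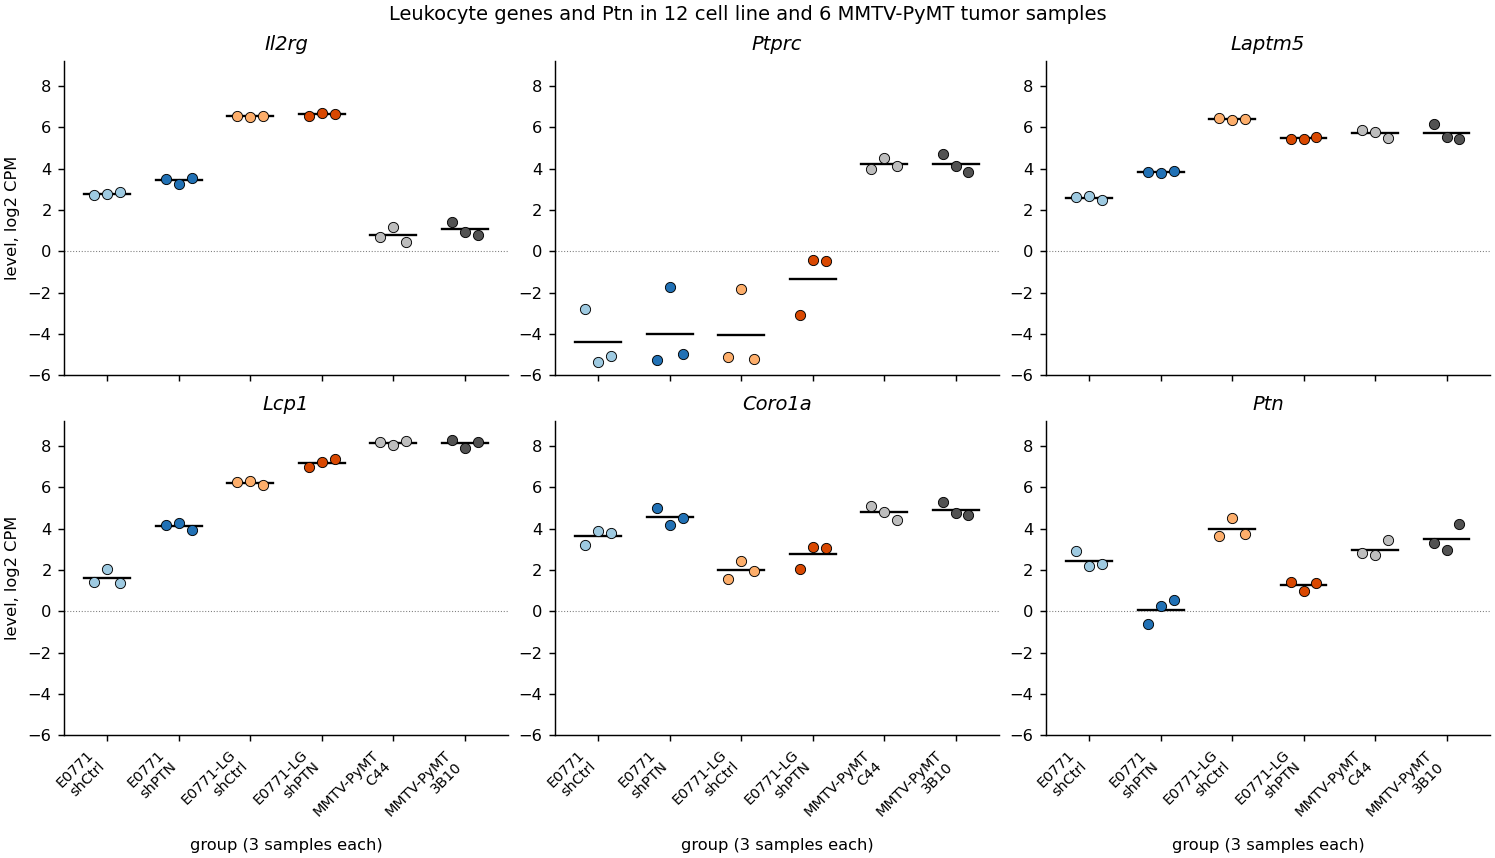
Level in log2 CPM (vertical axis) of the 5 leukocyte genes and Ptn in each of 12 cell line and 6 MMTV-PyMT samples, grouped along the horizontal axis; points are samples and bars are group means. Il2rg, Laptm5 and Lcp1 lie higher in E0771-LG than in E0771 cells, Ptprc has 0 to 13 reads in the cell samples, and Coro1a is lower in E0771-LG.

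Sequences before RefSeq starts of the genes are shown because Il2rg, Laptm5 and Lcp1 were high in the same cells. RefSeq promoters (build GRCm38.p6) were matched for 5 of 5 genes, 8 windows of 250 bases upstream in all, and 4 motifs, chosen after the promoters were read, were searched on both strands: the core CGGAAG known from ETS proteins, the core TGTGGT known from RUNX proteins, the promoter motif GGGCGG known from Sp proteins, and the start site motif TATAAA. None of the 4 contains another, and matches did not overlap. Of 32851 promoter windows of that length, 13.6% hold CGGAAG, 14.0% TGTGGT, 32.7% GGGCGG and 12.4% TATAAA on either strand. Capitals mark matches, read 5' to 3' on the gene's strand, so a match on the opposite strand shows as its reverse complement (CCGCCC). The Il2rg stretch is chrX:101268256-101268505 on the minus strand, the first Laptm5 stretch chr4:130913066-130913124 and its second chr4:130913240-130913269 on the plus strand, and the Lcp1 stretch chr14:75130882-75131100 on the plus strand.
Il2rg: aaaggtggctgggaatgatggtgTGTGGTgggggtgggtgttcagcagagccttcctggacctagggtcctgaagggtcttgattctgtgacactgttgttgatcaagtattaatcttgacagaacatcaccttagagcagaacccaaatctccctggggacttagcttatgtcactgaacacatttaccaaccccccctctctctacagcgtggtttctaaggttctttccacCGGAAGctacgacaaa
Laptm5: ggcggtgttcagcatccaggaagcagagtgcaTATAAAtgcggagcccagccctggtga
Laptm5: ctgagggcaaggCGGAAGtgaggcaggcag
Lcp1: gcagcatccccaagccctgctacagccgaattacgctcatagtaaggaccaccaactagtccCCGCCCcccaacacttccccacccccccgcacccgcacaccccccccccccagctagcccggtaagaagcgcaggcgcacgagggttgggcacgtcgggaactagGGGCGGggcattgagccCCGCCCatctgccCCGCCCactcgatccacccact
Distances are counted from the RefSeq starts, which for all but Il2rg lie inside the gene spans given below. The Il2rg window held CGGAAG 16 to 11 bases before the start and TGTGGT 227 to 222 bases before it. The Laptm5 window, whose RefSeq start is 130913316, held CGGAAG 64 to 59 bases and TATAAA 218 to 213 bases before that start. This CGGAAG lies in an annotated untranslated region, within the gene span, and the TATAAA before the span, while the Lcp1 window held GGGCGG 4 times, 3 of them on the opposite strand. CGGAAG was thus in the windows of Il2rg and Laptm5 and in none of Lcp1, Ptprc or Coro1a. In the windows of the remaining genes, Ptprc had a TATAAA on the opposite strand 187 to 182 bases before its start and Coro1a a GGGCGG 153 to 148 bases before its start, both within the gene spans. A match is a run of letters and says nothing of what binds there.

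Il2rg (ENSMUSG00000031304, chromosome X, 101264378 to 101268255, minus strand) encodes the common gamma chain, the signalling subunit that the receptors for several lymphocyte interleukins share. In cell lines its level was 2.73, 2.79 and 2.86 log2 CPM in E0771shCtrl, 3.51, 3.26 and 3.53 in E0771shPTN, 6.55, 6.52 and 6.53 in E0771-LGshCtrl, and 6.55, 6.71 and 6.64 in E0771-LGshPTN. The lines were far apart, with the lowest E0771-LG control sample 3.66 log2 units above the highest E0771 control sample, and the E0771-LG control samples were nearly alike. The mean difference between the control cells was 3.74 log2 units, or 13.3-fold, and 3.89 relative to the median gene. Between the shPTN cells it was 3.20 log2 units. In MMTV-PyMT tumors Il2rg was lower than in either line, at 0.72, 1.18 and 0.44 with C44 and 1.42, 0.95 and 0.81 with 3B10. The order of mean levels was therefore E0771-LGshPTN (6.63), E0771-LGshCtrl (6.53), E0771shPTN (3.44), E0771shCtrl (2.79), MMTV-PyMT with 3B10 (1.06) and with C44 (0.78), and only the last 2 overlapped, though the first 2 nearly touched.

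With shPTN, Il2rg rose in E0771 cells by 0.64 log2 (SE 0.17, adjusted p 0.0217, higher in 3 of 3 samples). That call did not hold in 5 of the 6 fits that leave out 1 library: its adjusted p was 0.051 without E0771shCtrl replicate 1, 0.061 without E0771shCtrl replicate 2, 0.064 without E0771shCtrl replicate 3, 0.059 without E0771shPTN replicate 1 and 0.098 without E0771shPTN replicate 3. Over all alternatives for Il2rg in E0771 it ranged from 0.000997 to 0.0982. In E0771-LG the difference was 0.10 (SE 0.094, adjusted p 0.401, 95% interval -0.11 to 0.31). The effect in E0771-LG less that in E0771 was -0.54 for Il2rg (SE 0.16), given as a value, since the control levels that served to choose the gene enter it. The gene lies within a longer annotated read-through gene, Gm20489, on the same strand, which is not among the measured genes, so how shared reads were counted is uncertain.

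The common gamma chain signals only with partner chains and kinases, so these were read as well. Of 30 listed partner chains, kinases, STAT proteins and their targets, 22 were measured and 17 could be tested between the control cells. There 2 were higher and 7 lower in E0771-LG, with a median difference of -0.18 against -0.15 over all genes. Il4ra, the interleukin 4 receptor chain, had mean levels of 5.91 log2 CPM in E0771shCtrl and 5.38 in E0771-LGshCtrl and was lower in E0771-LG by -0.53 (adjusted p 0.0048, in 3 of 3 samples). Il15ra (3.76 and 3.66) and Il13ra1 (5.83 and 5.76) differed little between the control cells, Il2rb had 6 to 29 reads in E0771shCtrl and 2 to 14 in E0771-LGshCtrl, and Il21r had 0 reads in all 6. The kinase that docks on the common gamma chain, Jak3, had mean levels of 5.09 and 4.90, and Jak1, which docks on the partner chains, 8.38 and 8.22. Per kilobase of exon, Il2rg in E0771-LGshCtrl (38.8 CPM) was near Jak1 (41.5) and above Il13ra1 (14.7), Il4ra (6.98) and Jak3 (5.68). With shPTN, 2 of 18 tested genes of the list were called higher and 6 lower in E0771-LG (median -0.25), and 1 of 17 higher and 3 lower in E0771 (median -0.15). Jak1 fell by 0.53 with shPTN in E0771-LG (SE 0.10, adjusted p 0.00186, in 3 of 3 samples). Il2rb, with 27 to 41 reads in E0771-LGshPTN, rose there by 2.22 (SE 0.68, adjusted p 0.0203), a call lost in 3 of 14 alternatives (adjusted p 0.00605 to 0.0905). Jak3 fell in E0771 by 0.49 (SE 0.13, adjusted p 0.0214), a call lost in 4 of 15 (0.0198 to 0.0907), and its effects in the lines differed by 0.90 (adjusted p 0.0178), lost in 1 of 16 (0.0024 to 0.0528).

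Ptprc (ENSMUSG00000026395, chromosome 1, 138062861 to 138175708, minus strand) encodes CD45, the receptor phosphatase found on nearly all nucleated blood cells. Its reads in the cell lines were 2, 0 and 0 in E0771shCtrl, 0, 5 and 0 in E0771shPTN, 0, 5 and 0 in E0771-LGshCtrl, and 2, 13 and 12 in E0771-LGshPTN. All 4 groups overlapped their neighbours and most samples were at or under the floor of 3 reads, so Ptprc passed the filter in neither line and was not tested. In MMTV-PyMT tumors it stood at 3.97, 4.54 and 4.11 log2 CPM with C44 and 4.70, 4.13 and 3.82 with 3B10, above every cell line sample. The exact permutation test of E0771-LGshPTN against E0771-LGshCtrl gave p 0.2, where 3 against 3 samples allow no less than 0.1 in a test of both sides. An unclassified transcript on the same strand, A130071D04Rik, overlaps Ptprc and was not measured.

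Other receptor phosphatases were read beside Ptprc. Of 20 listed, 11 were measured, and of 6 tested between control cells 1 was higher and 4 lower in E0771-LG, with a median of -0.68 against -0.15 over all genes. The abundant ones were Ptprs (8.45 log2 CPM in E0771shCtrl, 6.96 in E0771-LGshCtrl), Ptpra (7.43 and 6.53), Ptprn (7.17 and 6.11) and Ptprj (6.51 and 6.06), each lower in E0771-LG in 3 of 3 samples (adjusted p 0.0045, 4.0e-05, 0.0117 and 0.0066). Ptpre was higher there, with a mean of 3.69 against 2.82 (adjusted p 0.0027, in 3 of 3 samples). With shPTN, 1 of 8 was called higher and 2 lower in E0771-LG, and 2 of 7 higher in E0771. In E0771-LG Ptprz1, which encodes a known PTN receptor, rose by 2.16 (SE 0.38, adjusted p 0.0012, in 3 of 3 samples). Ptprj fell there by 0.55 (adjusted p 0.00207) and Ptpre by 0.65 (adjusted p 0.0119). In E0771 Ptprf rose by 1.20 (SE 0.26, adjusted p 0.00964). With the filter raised from 1 to 5, Ptprz1 in E0771-LG and Ptprf in E0771 were too low to be tested. Among 21 genes of the kinases, adaptors and phosphatases that act with CD45, 17 were measured. Between the control cells 15 were tested, 2 were higher and 6 lower in E0771-LG, and the median was -0.24. Ptpn6, which encodes the phosphatase SHP-1, was higher: its mean was 5.23 log2 CPM in E0771-LGshCtrl against 3.18 in E0771shCtrl, a difference of 2.05 (SE 0.20, adjusted p 2.4e-05). With shPTN 7 of 15 were higher and 2 lower in E0771-LG, and 3 of 16 higher and 3 lower in E0771.

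Laptm5 (ENSMUSG00000028581, chromosome 4, 130913125 to 130936141, plus strand) encodes a lysosomal membrane protein that promotes the breakdown of antigen receptors. Its level was 2.61, 2.68 and 2.49 log2 CPM in E0771shCtrl and 3.85, 3.78 and 3.89 in E0771shPTN. In E0771-LG it was 6.46, 6.37 and 6.40 in control cells and 5.43, 5.44 and 5.55 in shPTN cells. No groups overlapped, and the lines lay nearer each other with the hairpin, which went with higher values in E0771 and lower values in E0771-LG. The control cells differed by 3.82 log2 units, or 14.1-fold (3.97 relative to the median gene), and the shPTN cells by 1.63. Laptm5 rose in E0771 cells by 1.25 (SE 0.16, adjusted p 0.000552, higher in 3 of 3 samples, to 2.38-fold), and in E0771-LG cells it fell by 0.94, to 52.2% of control (SE 0.099, adjusted p 7.6e-05, lower in 3 of 3 samples). The effect in E0771-LG less that in E0771 was -2.19 for Laptm5 (SE 0.15), again a value only. In MMTV-PyMT tumors Laptm5 stood at 5.84, 5.75 and 5.50 with C44 and 6.16, 5.54 and 5.44 with 3B10. In the order of mean levels E0771-LGshCtrl (6.41) came first, then MMTV-PyMT with 3B10 (5.71), MMTV-PyMT with C44 (5.70) and E0771-LGshPTN (5.47), which overlapped their neighbours, then E0771shPTN (3.84) and E0771shCtrl (2.59).

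The related genes Laptm4a and Laptm4b, whose products sit in lysosomes and late endosomes of most cells, differed far less between the lines. In E0771shCtrl and E0771-LGshCtrl, Laptm4a had mean levels of 8.23 and 7.90 log2 CPM and Laptm4b of 6.72 and 6.74. With shPTN Laptm4a rose in E0771-LG by 0.69 (SE 0.086, adjusted p 0.000184, in 3 of 3 samples), opposite to Laptm5. In E0771 Laptm4a rose by 0.39 (adjusted p 0.0332), the direction of Laptm5 there, a call lost in 6 of 15 alternatives (0.00168 to 0.12). Laptm4b rose in E0771 by 0.61 (SE 0.091, adjusted p 0.00124, in 3 of 3 samples). Of 10 listed genes, these 2 with the ubiquitin ligases and sorting adaptors that act on Laptm5, 10 were tested between control cells, 2 were higher and 5 lower in E0771-LG, and the median was -0.28. With shPTN 2 were called higher and 3 lower in E0771-LG (median -0.15), and 3 higher in E0771 (median 0.18). Nedd4, the ligase known to bind Laptm5, had a mean of 9.46 in E0771shCtrl and 8.94 in E0771-LGshCtrl, and fell by 0.71 with shPTN in E0771-LG (adjusted p 0.000142, in 3 of 3 samples).

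Lcp1 (ENSMUSG00000021998, chromosome 14, 75131101 to 75230842, plus strand) encodes L-plastin, which bundles actin filaments. Its level was 1.43, 2.07 and 1.36 log2 CPM in E0771shCtrl and 4.17, 4.26 and 3.93 in E0771shPTN. In E0771-LG it was 6.25, 6.31 and 6.11 in control cells and 7.00, 7.22 and 7.35 in shPTN cells. The 4 groups were separate and in the same order in both lines, shPTN above control and E0771-LG above E0771. The control cells differed by 4.61 log2 units, or 24.4-fold (4.76 relative to the median gene), and the shPTN cells by 3.07. Lcp1 rose in both lines, by 2.50 in E0771 (SE 0.23, adjusted p 7.8e-05, 5.66-fold) and by 0.97 in E0771-LG (SE 0.11, adjusted p 0.000134, 1.96-fold), in 3 of 3 samples each. The effect in E0771-LG less that in E0771 was -1.53 for Lcp1 (SE 0.24), likewise a value only. MMTV-PyMT tumors held more Lcp1 than any cell line sample, at 8.20, 8.03 and 8.23 with C44 and 8.30, 7.88 and 8.21 with 3B10, and those 2 groups overlapped. In order of mean level, MMTV-PyMT with C44 (8.15) and with 3B10 (8.13) stood above E0771-LGshPTN (7.19), E0771-LGshCtrl (6.22), E0771shPTN (4.12) and E0771shCtrl (1.62). The noncoding genes Gm15628 and Gm15629 lie on the opposite strand within Lcp1 and were not measured, and whether strand was used in counting is not stated.

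The other plastins were read beside Lcp1. Pls3, the plastin of most solid tissues, had mean levels of 8.12 in E0771shCtrl and 8.13 in E0771-LGshCtrl, and fell by 0.48 with shPTN in E0771-LG (SE 0.10, adjusted p 0.00322, in 3 of 3 samples). Pls1, the plastin of microvilli, was higher in E0771-LG control cells, with a mean of 3.34 against 1.14 (difference 2.20, SE 0.24, adjusted p 5.3e-05, in 3 of 3 samples). Per kilobase, E0771-LGshCtrl cells held 66.5 CPM of Pls3, 7.88 of Lcp1 and 2.60 of Pls1, and E0771shCtrl cells 66.1, 0.331 and 0.572. Lcp1 thus passed Pls1 but stayed well under Pls3. Of 12 listed plastins, other actin bundlers and cortex proteins, 11 were measured and 10 tested between control cells, where 4 were higher and 1 lower in E0771-LG (median 0.03). With shPTN 0 of 10 were called higher and 6 lower in E0771-LG with 7 past an unadjusted p of 0.05 (limma, median -0.41), and 2 higher and 2 lower in E0771 (median 0.02).

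Coro1a (ENSMUSG00000030707, chromosome 7, 126699773 to 126707787, minus strand) encodes coronin 1A, which binds actin and the Arp2/3 complex and is the coronin of blood cells. Its level was 3.20, 3.91 and 3.79 log2 CPM in E0771shCtrl and 5.01, 4.18 and 4.51 in E0771shPTN. In E0771-LG it was 1.57, 2.42 and 1.96 in control cells and 2.05, 3.12 and 3.08 in shPTN cells. Every E0771 sample lay above the E0771-LG samples of the same vector, the reverse of Il2rg, Laptm5 and Lcp1. The difference between control cells was -1.65 log2 (3.13-fold lower, -1.50 relative to the median gene) and that between shPTN cells -1.82. Coro1a rose with shPTN in E0771 by 0.94 (SE 0.24, adjusted p 0.0187, higher in 3 of 3 samples). The adjusted p of Coro1a in E0771 was 0.053 without E0771shCtrl replicate 1 and 0.055 without E0771shPTN replicate 3, and ranged from 0.00556 to 0.0549 over its alternatives. In E0771-LG the groups overlapped and the difference of 0.77 (SE 0.34, adjusted p 0.0836, exact permutation p 0.2) was not called. It passed the threshold with replicate number as a block, without E0771-LGshCtrl replicate 2 (0.98, adjusted p 0.031) and without E0771-LGshPTN replicate 1 (1.11, adjusted p 0.016). Its adjusted p ranged from 0.0165 to 0.274 over the alternatives. The effect in E0771-LG less that in E0771 was -0.17 for Coro1a (SE 0.45). In MMTV-PyMT tumors Coro1a stood at 5.11, 4.82 and 4.41 with C44 and 5.29, 4.77 and 4.65 with 3B10. In order of mean level, MMTV-PyMT with 3B10 (4.90), MMTV-PyMT with C44 (4.78) and E0771shPTN (4.57) overlapped their neighbours, E0771shCtrl (3.63) stood apart, and E0771-LGshPTN (2.75) and E0771-LGshCtrl (1.98) overlapped. The end of Coro1a overlaps Bola2 on the opposite strand, so some reads may belong to either.

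The other coronins were read beside Coro1a. Mean levels in E0771shCtrl and E0771-LGshCtrl were 8.14 and 6.80 for Coro1b, 7.58 and 8.20 for Coro1c, and 5.31 and 4.65 for Coro7, while Coro2a and Coro6 stayed under 1 CPM in every cell group. Of 6 listed coronins 5 were measured and 3 tested between control cells: Coro1b was lower in E0771-LG by -1.34 (adjusted p 1.0e-05), Coro7 by -0.65 (adjusted p 0.0026), and Coro1c was higher by 0.62 (adjusted p 0.000289), each in 3 of 3 samples. The median was -0.65. With shPTN, Coro1b rose in E0771-LG by 0.67 (SE 0.12, adjusted p 0.00105) and Coro1c fell by 0.51 (SE 0.095, adjusted p 0.00146), and in E0771 Coro7 fell by 0.66 (SE 0.13, adjusted p 0.00559), each in 3 of 3 samples. Per kilobase, E0771-LGshCtrl cells held 35.0 CPM of Coro1b and 30.4 of Coro1c against 1.46 of Coro1a. Of 15 genes of the Arp2/3 complex, cofilin and its regulators, on which coronins act, 15 were tested. Between control cells 2 were higher and 4 lower in E0771-LG, with a median of -0.14. With shPTN 8 were called higher and 1 lower in E0771-LG (median 0.42), and 3 higher in E0771 (median 0.15).

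By experiment, shPTN changed 2 of the 5 leukocyte genes in E0771-LG cells, 1 higher and 1 lower, with 4 tested. That count was 2 to 3 over the alternatives, and 3 where Coro1a passed the threshold. The background was 24.3% of 10405 genes called higher and 22.1% called lower, so the count is of the size that the experiment gives for genes in general. In E0771 cells 4 of the 5 were called higher, the 4 tested, where the background was 8.89% of 10394 genes higher and 11.7% lower. Without E0771shCtrl replicate 1, and again without E0771shPTN replicate 3, the count in E0771 was 2. The difference of the effect between the lines passed the threshold for 3 of the 5, where 34% of 10600 genes were called in either direction, and nothing is read from that count. The E0771-LGshCtrl and E0771shCtrl samples serve both as controls of the knockdown and in the comparison of the lines, so these comparisons share samples. Genes chosen for a high level in E0771-LGshCtrl against E0771shCtrl are by that choice more likely to show a higher effect in E0771, a lower one in E0771-LG and a difference below 0, and to pass a test of that difference, so nothing is read from these directions for Il2rg, Laptm5 and Lcp1. Fibroblast markers moved in the same experiment: with shPTN in E0771, 6 of 7 tested were called higher and 0 lower, with a median of 1.61 against -0.03 over all genes, among them Col3a1 (2.83), Pdgfrb (1.61) and Pdgfra (1.43). Their sum, mostly Vim, which was not called, was 4397, 4995 and 4646 CPM in E0771shCtrl and 4514, 4851 and 4610 in E0771shPTN, with Lum and Thy1 at 0 to 1 reads. In E0771-LG 1 of 8 was called higher and 4 lower (median -0.56). The part of this shift in the values of the leukocyte genes was not tested.

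**Figure D2:**
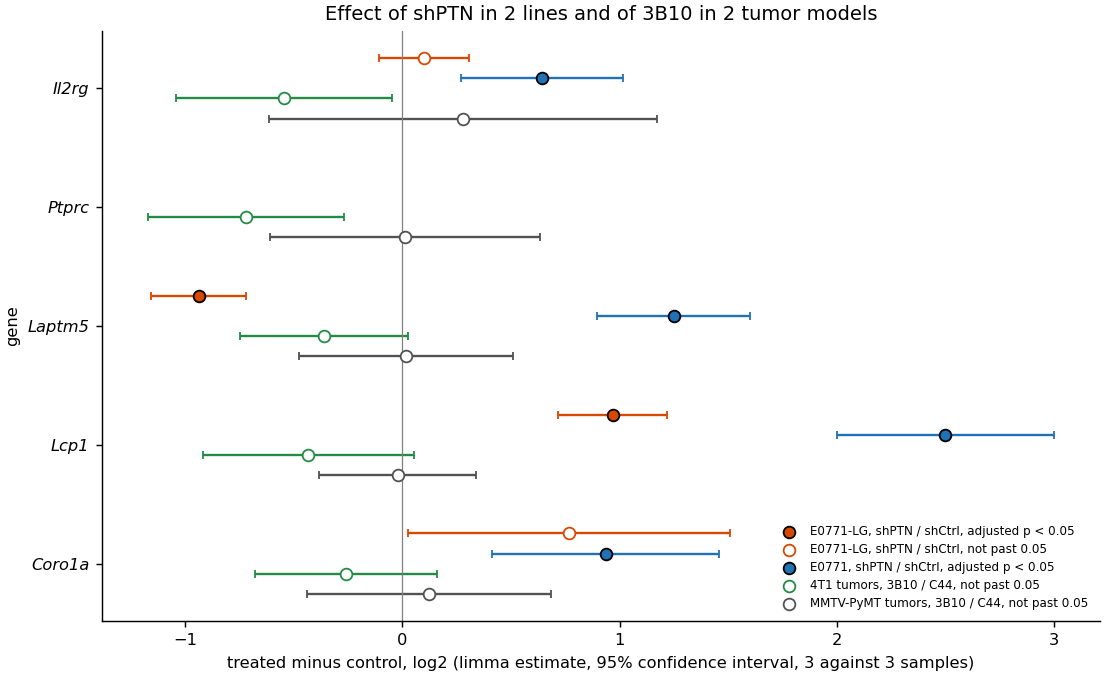
Treated minus control in log2 units (horizontal axis) for each leukocyte gene (vertical axis) in the 4 experiments; points are limma estimates from 3 against 3 samples, bars 95% confidence intervals, and filled points passed an adjusted p of 0.05. Laptm5 lies at -0.94 in E0771-LG and 1.25 in E0771 cells, Lcp1 lies above 0 in both, and all 5 genes lie below 0 in 4T1 tumors with none past the threshold; Ptprc was not tested in the cell lines.

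Levels of different genes can be set side by side only per length of exon. That length is the union of all annotated exons of a gene, from 2.39 kb for Il2rg to 18.3 kb for Ptprc. The order therefore also depends on the annotation. In E0771-LGshCtrl the order was Il2rg (38.8 CPM per kilobase), Laptm5 (22.5), Lcp1 (7.88), Coro1a (1.46) and Ptprc (0.00613). In E0771-LGshPTN, Lcp1 (15.5) stood above Laptm5 (11.7), between Il2rg (41.6) and Coro1a (2.55). In E0771shCtrl the order was Coro1a (4.55), Il2rg (2.91), Laptm5 (1.60), Lcp1 (0.331) and Ptprc (0.00363). MMTV-PyMT tumors with C44 had another order again, Lcp1 (30.0), Laptm5 (13.8), Coro1a (10.1), Ptprc (1.02) and Il2rg (0.735). Il2rg was thus the most abundant of the 5 in E0771-LG cells and the least abundant in MMTV-PyMT tumors, while Ptprc, last in both lines, was above Il2rg in those tumors.

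Whether E0771-LG cells carried leukocyte RNA more widely was read from gene lists that leave out the 5 genes. The lists were chosen with earlier results of these data known, so they are no independent check. Of 50 genes shared by many leukocytes 43 were measured. Their summed level was 680.0, 704.8 and 682.1 CPM in E0771shCtrl and 1093, 1273 and 1185 in E0771-LGshCtrl, without overlap, and Nckap1l was the most abundant of them in both. Of the 25 tested, 17 were higher and 1 lower in E0771-LG, with a median of 0.79 against -0.15 over all genes. Vav1, a signalling protein of blood cells, had a mean of 3.33 in E0771shCtrl and 5.71 in E0771-LGshCtrl (difference 2.38, SE 0.16, adjusted p 3.1e-06). Spn, which encodes the surface protein CD43, had 0.44 and 4.08 (difference 3.64, SE 0.26, adjusted p 5.0e-06), and Dok2, an adaptor, had -2.04 and 2.77 (adjusted p 2.3e-05). Rac2, the blood cell GTPase, had 0 to 1 reads in E0771shCtrl and 37 to 85 in E0771-LGshCtrl (adjusted p 0.000148). All 4 were higher in 3 of 3 samples. Rac2 and Dok2, low in E0771shCtrl, could be tested only because E0771-LG held more of them. Of the list, 21 genes had a mean of at least 1 CPM in E0771shCtrl and 22 in E0771-LGshCtrl. With shPTN, 5 of 23 genes of the list were called higher and 5 lower in E0771-LG (median -0.03), and 8 of 24 higher in E0771 (median 0.37). Over all 20 lists, which also hold partner genes and markers of epithelium, fibroblasts and vessels, 231 of 317 distinct genes were measured and 127 tested between the control cells, with 41 called higher and 36 lower in E0771-LG (45 and 28 under median-of-ratios scaling), where 19.2% of all genes were called higher and 35.3% lower.

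**Figure D3:**
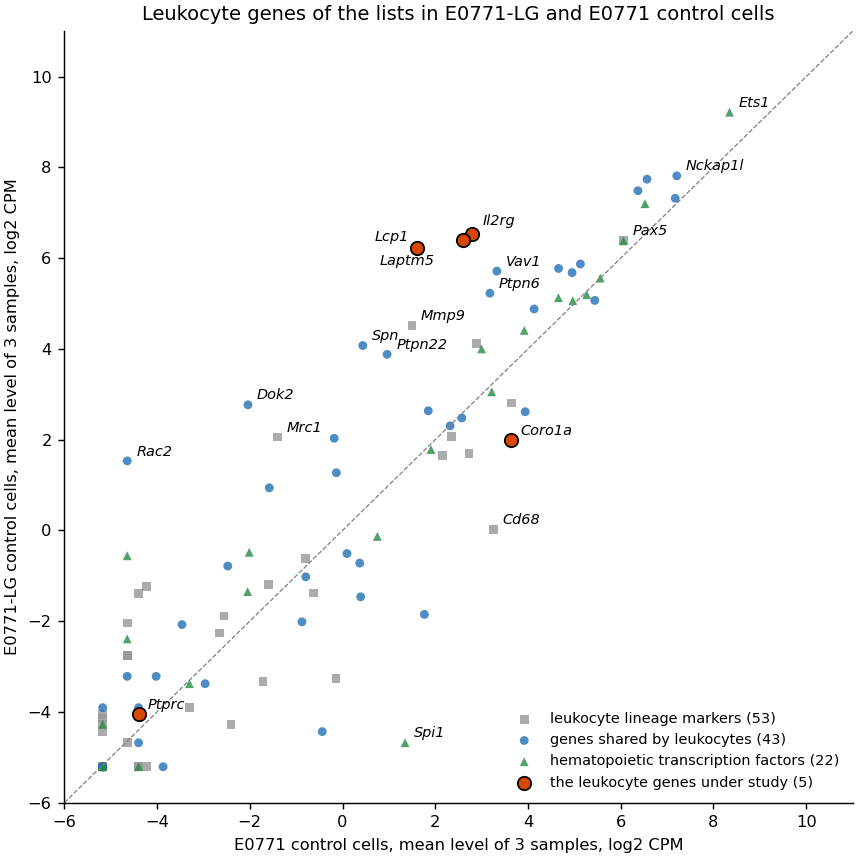
Mean level over 3 samples in log2 CPM in E0771 control cells (horizontal axis) and E0771-LG control cells (vertical axis) of genes shared by leukocytes, leukocyte lineage markers, hematopoietic transcription factors and the 5 leukocyte genes under study; the dashed line marks equal levels. Il2rg, Laptm5 and Lcp1 lie far above the line, Coro1a and Cd68 below it, and most lineage markers near the floor in both lines.

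Markers of single blood cell types were mostly near 0 in both lines. Of 22 macrophage markers 21 were measured and 17 of them stayed under 1 CPM in every cell group, and Tyrobp, C1qa and C1qc had 0 reads in all 12 samples. Their sum was 19.2 to 52.2 CPM in the 12 cell samples and 1119 to 1937 in the MMTV-PyMT tumors. In single samples it was 19.2, 34.3 and 28.3 in E0771shCtrl and 26.0, 31.2 and 28.5 in E0771-LGshCtrl, with Cd68 and Cd14 the most abundant, and the groups overlapped. In the hairpin cells it was 52.2, 38.5 and 43.7 in E0771shPTN, above every E0771shCtrl sample and mostly Lyz2, and 21.5, 26.7 and 28.8 in E0771-LGshPTN. With shPTN 1 of 3 tested was called higher and 0 lower in E0771. That gene was Lyz2 (2.23, SE 0.16, adjusted p 1.6e-05, in 3 of 3 samples). Of those 3, 2 lay below 0, and all 3 had an unadjusted p under 0.05 (limma). Their median was -0.63 against -0.03 over all genes, so the rise of the sum in E0771 was that of Lyz2. In E0771-LG 2 of 4 were called higher and 2 lower. The part of these shifts in the values of the leukocyte genes in E0771 was not tested. Between the control cells, of 4 tested, Mrc1 and Cd14 were higher and Cd68 and Lyz2 lower in E0771-LG. The call for Lyz2 did not hold under quantile normalization (adjusted p 0.137). Neutrophil markers, 8 of 13 measured, summed to 2.94 to 30.3 CPM with S100a9, Retnlg and Csf3r at 0, and Mmp9 was higher in E0771-LG (difference 3.01, adjusted p 6.0e-05). With shPTN their sum went from 22.3, 30.3 and 29.8 CPM to 9.42, 15.9 and 12.7 in E0771-LG, mostly Mmp9, with 0 of 2 tested called higher and 1 lower, and in E0771 0 of 2 were called. T cell markers, 7 of 17, summed to 3.36 to 13.1 CPM, mostly Lck, with Trbc2 at 0 and Cd3e and Cd3g at no more than 3 reads, and of 1 tested between the control cells 0 were called (limma, 0 at an unadjusted p under 0.05). With shPTN the T cell sum went from 3.90, 6.41 and 3.36 CPM to 9.73, 11.9 and 13.1 in E0771-LG, where 3 of 3 tested were called higher (median 1.57). In E0771-LGshCtrl 1 marker of that list had a mean of at least 1 CPM, and in E0771-LGshPTN 3 did. A marker low in the control cells could be tested only if the hairpin cells held more, so nothing is read from that count. In E0771 the T cell sum went from 6.41, 4.14 and 5.63 CPM to 8.36, 7.89 and 8.41. There 1 of 1 was called higher, Lck, a call lost in 4 of 15 alternatives (adjusted p 0.0227 to 0.0925). The part of these shifts in the values of the leukocyte genes was not tested. Markers of natural killer and cytotoxic cells, 5 of 10, summed to 0.122 to 1.58 CPM. B cell markers, 3 of 9, were Pax5, at a mean of 6.06 and 6.38 log2 CPM in the control cells, with Ighm and Igkc at 0. Pax5, the 1 tested, was called lower with shPTN in E0771-LG (-1.07, adjusted p 0.000508). It was also called lower in E0771 (-0.38, adjusted p 0.0385), a call lost in 9 of 15 alternatives (0.0115 to 0.123). Of 8 dendritic markers 2 were measured, at a sum of 5.04 to 14.9 CPM. Mast cell and basophil markers, 2 of 8, summed to no more than 0.287 CPM, and erythroid and megakaryocyte markers, 5 of 10, to no more than 2.56.

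Transcription factors of blood cells differed in both directions. Of 34 listed 22 were measured and 13 tested between control cells, with 4 higher and 1 lower in E0771-LG and a median of 0.09. Ets1, the most abundant, had a mean of 8.35 in E0771shCtrl and 9.22 in E0771-LGshCtrl (difference 0.87, SE 0.091, adjusted p 3.9e-05, in 3 of 3 samples) and fell by 0.65 with shPTN in E0771-LG (adjusted p 0.000269). Spi1, which encodes the myeloid factor PU.1, was lower in E0771-LG, with 41 to 53 reads in E0771shCtrl and 0 to 1 in E0771-LGshCtrl (adjusted p 0.000133). With shPTN, 2 of 12 were called higher and 6 lower in E0771-LG, and 4 of 14 higher and 2 lower in E0771.

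The lines' own identity was read from the same kind of lists. Epithelial markers, 12 of 12 measured, summed to 100.4 to 566 CPM in the cell samples against 4939.8 to 6859.6 in MMTV-PyMT tumors, and Krt8 made up most of it, while Cldn3 and Cldn4 were at 0 and Krt5 at no more than 3 reads. Krt8 was higher in E0771-LG control cells (difference 0.69, adjusted p 0.000993) and rose by 1.57 with shPTN in E0771-LG (adjusted p 3.9e-05), in 3 of 3 samples each. With shPTN the epithelial sum went from 158.7, 204.9 and 164.8 CPM to 426, 566 and 517 in E0771-LG, with 3 of 3 tested called higher. Of these, Epcam (0.46, adjusted p 0.0381) lost its call in 5 of 15 alternatives. In E0771-LGshCtrl 2 epithelial markers had a mean of at least 1 CPM, and in E0771-LGshPTN 4 did. A marker low in the control cells could be tested only if the hairpin cells held more, so nothing is read from that count. In E0771, where 1 of 3 was called higher, the sums overlapped. Fibroblast markers, 10 of 11, summed to 4273 to 6427 CPM, mostly Vim, and of 6 tested 3 were higher and 2 lower in E0771-LG. Endothelial markers, 4 of 6, summed to no more than 3.41 CPM.

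**Figure D4:**
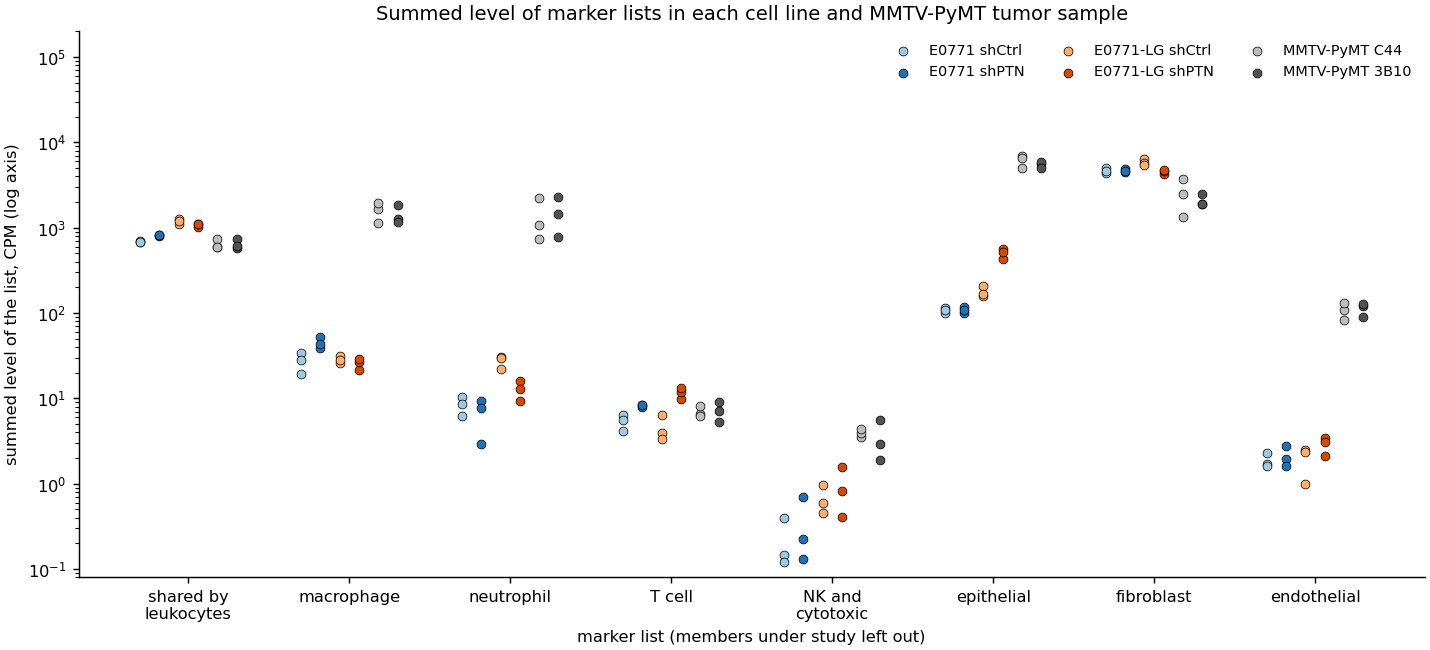
Summed level in CPM (vertical log axis) of 8 marker lists (horizontal axis) in each cell line and MMTV-PyMT tumor sample; points are samples. The genes shared by leukocytes sum to 1093 to 1273 CPM in E0771-LGshCtrl, 680.0 to 704.8 in E0771shCtrl and 578 to 745 in the tumors. T cell markers overlap the tumors, at 3.36 to 13.1 CPM in the cell samples and 5.34 to 9.07 in the tumors. Macrophage and neutrophil markers lie far below the tumors in both lines, and natural killer markers lie below them. In the tumors Ltf alone made up 98.3% of the neutrophil sum with C44 and 98.9% with 3B10, so the gap in that list is that of Ltf.

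Of 10384 genes with a mean of at least 1 log2 CPM in a cell group, those whose values most resembled the mean of the 5 leukocyte genes over the 12 cell samples were Tfap2a (r 0.98), Nsdhl (0.973), Ptpn6 (0.97), Sla2 (0.969), Adm2 (0.969), Akr1c12 (0.968), Prkar2b (0.963), Ttc8 (0.956), Itgb2 (0.953) and Mospd3 (0.953). The 12 samples fall in 4 groups, so r mostly compares 4 group means. That mean was 1.25 in E0771shCtrl, 2.40 in E0771shPTN, 3.42 in E0771-LGshCtrl and 4.14 in E0771-LGshPTN. Ptprc, with few reads, differed most of the 5 between the E0771-LG groups (2.73), so much of the last step rests on a gene near the floor. How far the ranking depends on Ptprc was not tested. The 5 genes themselves had an r with their mean of 0.904 (Il2rg), 0.856 (Laptm5), 0.965 (Lcp1), 0.684 (Ptprc) and -0.504 (Coro1a).

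In 4T1 tumors the comparison of 3B10 with C44 asks whether leukocyte RNA differs when PTN is blocked in the animal. Whole tumors mix cancer and immune cells, so fewer leukocytes and less RNA per cell cannot be told apart there. On the 4T1 log2 scale Il2rg was 5.82, 6.00 and 5.61 with C44 and 5.15, 5.70 and 4.95 with 3B10, and Ptprc was 4.67, 4.74 and 4.36 with C44 and 3.70, 4.21 and 3.70 with 3B10. Ptprc was lower in all 3 treated tumors without overlap, and for Il2rg the treated replicate 2 lay within the control range. Laptm5 was 7.99, 8.01 and 7.96 with C44 and 7.41, 7.99 and 7.47 with 3B10, and Lcp1 was 7.02, 7.17 and 6.46 with C44 and 6.41, 6.69 and 6.25 with 3B10. Coro1a was 7.47, 7.43 and 7.63 with C44 and 7.49, 7.41 and 6.86 with 3B10. These 3 genes overlapped between the groups, and replicate 2 with 3B10 was nearest to the controls for Laptm5 and Lcp1.

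All 5 differences in 4T1 were below 0: -0.72 for Ptprc (SE 0.19, adjusted p 0.722), -0.54 for Il2rg (SE 0.21, adjusted p 0.741), -0.43 for Lcp1 (SE 0.21, adjusted p 0.835), -0.36 for Laptm5 (SE 0.17, adjusted p 0.812) and -0.26 for Coro1a (SE 0.18, adjusted p 0.898). When 1 tumor was left out, the differences stayed below 0. They ranged from -0.89 to -0.63 for Ptprc, -0.76 to -0.39 for Il2rg and -0.65 to -0.29 for Lcp1. For Laptm5 they ranged from -0.55 to -0.25 and for Coro1a from -0.38 to -0.06. Of the 5, 0 were called by limma, as for 0% of all 11467 genes. At an unadjusted p under 0.05 there were 2, Ptprc and Il2rg, against 6.27% of all genes. The exact permutation p of Ptprc was 0.1, the smallest that 3 against 3 samples allow. The other leukocyte genes also lay low: 40 of the 43 shared genes were below 0, 27 at an unadjusted p under 0.05 and 0 called, with a median of -0.52 against 0.01 over all genes. Their summed value was 3113, 2987 and 2860 with C44 and 2172, 2509 and 1883 with 3B10, without overlap, the most abundant being Cd53 with C44 and Lst1 with 3B10. Macrophage markers summed to 17882, 14644 and 16944 with C44 and 8593, 14031 and 9056 with 3B10, Lyz2 being the most abundant, with 20 of 21 below 0 and replicate 2 with 3B10 again near the controls. T cell markers were below 0 for 7 of 7, and their sums were 101, 132 and 174 with C44 and 75.7, 81.3 and 27.0 with 3B10. Epithelial markers lay above 0 for 10 of 11, with sums of 3509, 3930.1 and 3900.2 with C44 and 5452, 5199 and 5472 with 3B10, mostly Krt18. Neutrophil markers lay below 0 for 7 of 8, with 7 at an unadjusted p under 0.05 and a median of -0.74, and their sums were 1220.6, 1249.8 and 2012 with C44 and 1262.5, 1006.2 and 838 with 3B10, most abundant S100a8 with C44 and S100a9 with 3B10. Natural killer markers lay below 0 for 5 of 5 (1 at such a p, median -0.89), with sums of 112.9, 117.7 and 91.3 with C44 and 123.1, 48.4 and 33.4 with 3B10. Fibroblast markers lay above 0 for 8 of 10 and endothelial markers below 0 for 4 of 4. The part of these shifts in the values of the 5 leukocyte genes was not tested.

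**Figure D5:**
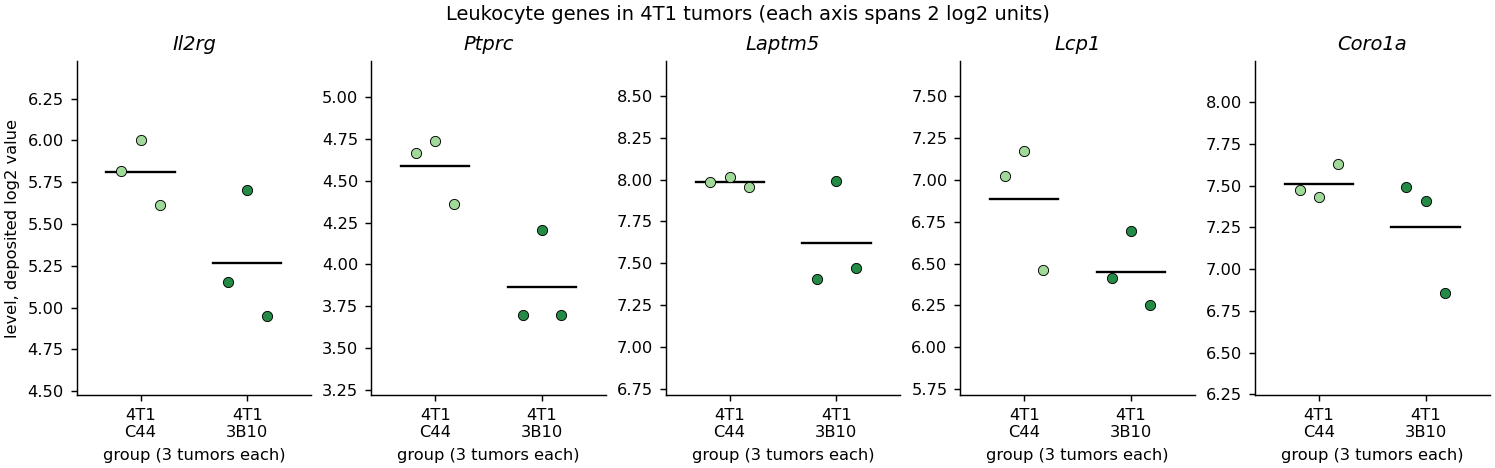
Deposited log2 value (vertical axes, each spanning 2 log2 units) of the 5 leukocyte genes in 4T1 tumors by group (horizontal axis, C44 and 3B10, 3 tumors each); points are tumors and bars are group means. Ptprc is lower in every 3B10 tumor than in every C44 tumor, the other genes overlap, and 0 of the 5 passed an adjusted p of 0.05.

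In MMTV-PyMT tumors the values of all 5 genes overlapped between C44 and 3B10. The differences were 0.28 for Il2rg (SE 0.39, 95% interval -0.62 to 1.17), 0.12 for Coro1a (SE 0.24), 0.02 for Laptm5 (SE 0.21), 0.01 for Ptprc (SE 0.27) and -0.02 for Lcp1 (SE 0.16). The sign of the values for Laptm5 and Ptprc changed with the scaling, and that for these and for Lcp1 and Coro1a when 1 tumor was left out. Of the 5, 0 were called by limma and 0 had an unadjusted p under 0.05, where 0% of all 11361 genes were called and 2.7% had such a p. Replicate 1 with 3B10 held the highest value of each of the 5 genes among the treated tumors. The shared leukocyte genes summed to 588, 728 and 593 CPM with C44 and 745, 578 and 612 with 3B10, Dock8 being the most abundant, and 15 of 42 lay above 0 and 27 below. Macrophage markers summed to 1646, 1937 and 1119 CPM with C44 and 1851, 1274 and 1177 with 3B10. In both lists replicate 1 was the highest treated tumor. The 3B10 effects in 4T1 and MMTV-PyMT were not tested against each other.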

How the data were processed

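RNA from 24 samples was sequenced as paired-end reads, which the authors aligned to mm10 with HISAT2 and counted with featureCounts. The deposited table holds log2 values for 12091 genes, and the step that made them is not stated. In 18 columns whole reads could be recovered from the log2 values (offset 0.5), and in the 6 columns of 4T1 they could not. Each experiment was fitted alone with limma 3.58.1 in R 4.3.3 (trend, robust, Benjamini-Hochberg); the authors name edgeR, which needs counts. The difference between the lines is an interaction term. The fits were checked on data with known answers. Replicate numbers did not pair the samples.

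The 5 genes, the gene lists and the comparisons were chosen with earlier results of these data known. Genes named are the 5, Ptn, their paralogs, the partners of the common gamma chain, the 10 genes with the highest r, and of each other list at most 6 with the largest difference between the control cells, plus the most abundant. Marker genes at or near 0 reads were named after their values were seen. Positions and exon lengths are from GENCODE M21, with the exon length of a gene taken as the union of all its annotated exons. Python 3.11.15, numpy 2.4.6, pandas 2.3.3, scipy 1.17.1 and matplotlib 3.10.9 were used. Alternatives tried were other scalings, filters and offsets, a replicate block, other model settings and leaving out each sample.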

Additional observations from a re-analysis of the deposited data

Results flagged for a closer look

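The effect of shPTN in E0771-LG less that in E0771, tested as an interaction by limma, passed an adjusted p of 0.05 for 3 of the 5 leukocyte genes: -2.19 log2 for Laptm5, -1.53 for Lcp1 and -0.54 for Il2rg. Among their relatives the effects also differed between the lines for Ptprz1 (2.39), Coro1b (0.83), Ptprf (-1.28), Ptprj (-0.70), Laptm4b (-0.70), Coro1c (-0.64) and Pls3 (-0.43). Of these, Pls3 lost its call in 10 of 16 alternatives (adjusted p 0.0135 to 0.11), Ptprz1 in 9 (0.0107 to 0.102, and 0.0519 with the replicate block) and Ptprf in 3 (0.00976 to 0.0671). The relatives are given because the lines' effects differed by this test, which 34% of all genes passed. For Il2rg, Laptm5 and Lcp1 the control levels that served to choose them enter the test, so the choice makes passing it and a value below 0 more likely, and nothing is read from either.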

How the results depend on the processing

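Over the alternatives tried, 115 of 117 counts stayed within 1.5 times their value and 60 of 60 values of Ptn kept direction and call. Of 373 values of the 5 leukocyte genes, 335 kept both or stayed within the spread, 8 lost the call, 3 gained it, 9 moved and 18 changed sign. Of 2339 values of called listed genes 206 lost the call. The count in E0771 cells was 2 to 4 when 1 sample was left out. Coro1a in E0771 also lost its call with all samples fitted together (adjusted p 0.0545, range 0.00556 to 0.0549).

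Changes of sign were in values near 0, none called. In MMTV-PyMT tumors quantile normalization gave -0.0275 for Laptm5 and -0.0255 for Ptprc, and median-of-ratios scaling gave -0.033 and -0.0365. Leaving out 1 tumor gave -0.21 to 0.15 for Laptm5, -0.11 to 0.10 for Lcp1, -0.23 to 0.21 for Ptprc and -0.0714 to 0.29 for Coro1a. Leaving out 1 sample gave -0.38 to 0.18 for the difference of the Coro1a effect between the lines. The Ptprc level in E0771-LG minus E0771 control cells, counted as within its spread, also changed sign, from -0.767 to 1.15. The cause was not tested.

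With replicate number as a block, Coro1a in E0771-LG passed the threshold (0.77, adjusted p 0.029, range 0.0165 to 0.274), which made 3 leukocyte genes called there in place of 2. The block left 4 called in E0771, 0 in each tumor experiment, 3 for the difference between the lines, and 80 listed genes between the control cells in place of 77. It changed no other call of the 5 genes. Deviations of same-numbered samples had a mean r of 0.0926 in E0771-LG, 0.0256 in E0771, -0.0478 in 4T1 and 0.102 in MMTV-PyMT, and not every sample correlated best with its own number.

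Limits are 3 samples a group, 1 hairpin construct, separately selected populations, an unknown depth and scale in 4T1, and few reads for Ptprc in the lines. Floors cover counting error only.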
